A study of Mus musculus with 5 samples.

Results

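The genes of the cytosolic ribosome, those that encode the protein subunits of the ribosomes outside the mitochondria, were followed across 5 cultures of mouse CD4 T cells. Members were chosen by name alone, as Rpl, Rplp or Rps followed by a number and at most a short suffix, which leaves out the ribosomal S6 kinases. Of 88 genes in the RefSeq gene table that fit this pattern, 83 had a matched probe, out of 21366 genes measured. Rpl37, Rpl6l, Rps12l1, Rps3a2 and Rps3a3 had no matched probe. The 83 members comprised 32 genes of the small subunit (Rps) and 51 of the large subunit (Rpl and Rplp), and 8 of them bear a name ending in l or l1, which marks a copy of another member. The pattern also passes over some ribosomal proteins with other names, such as Rpsa, Fau and Rack1.

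All cultures started from naive CD4 T cells of the spleen of C57BL/6 mice. The Th1 array holds cells after 4 days of CD3 and CD28 stimulation in IL-12 and IL-2 and with IL-4 blocked. The Th1+TGFb array holds Th1 cells that then spent 4 days in iTreg medium, in which CD3 and CD28 stimulation goes with IL-2, TGF-beta and a block of IFN-gamma and IL-4, for 8 days in all. The rested array holds Th1 cells kept 4 days in IL-2 with IFN-gamma and IL-4 blocked and no CD3 or CD28 stimulation, also 8 days in all. The Th1reg array holds rested cells after 4 more days in iTreg medium, 12 days in all, and the iTreg array holds naive cells after 4 days in that medium. How many animals gave the cells is not stated in the labels. Days in culture, stimulation and cytokines thus differ together between several of these groups and cannot be told apart.

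Ribosomes translate messenger RNA, and each is built in the nucleolus from ribosomal RNA and a copy of most of these proteins. The messenger RNAs of ribosomal proteins usually start with a C followed by a run of C and T letters, the 5′ terminal oligopyrimidine tract, through which mTOR signalling and the RNA-binding protein Larp1 adjust how much of them is translated. T cells are known to increase ribosome production when their antigen receptor is engaged and to make less protein at rest. The arrays measured messenger RNA levels and not translation.

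Each culture had 1 array, all on 1 slide, so there is no spread between cultures and no test, and a difference of at least 2-fold is described as higher or lower. Of the spots, 45.7% to 48.7% were well above background. The 75th percentile of probe signal, to which each array was scaled, was lowest for rested (128.4) and highest for Th1reg (259.4). Signals were also scaled to 7 spike-in probes, which bind control RNA added to each sample. The spike-ins read 0.22 to 0.58 log2 units brighter on the rested array than on the Th1 array, with the brightest of them at 0.22. All 8 T cell markers were well above background on all 5 arrays, while Cd79a and Pax5 of B cells, Lyz2, S100a8 and S100a9 of myeloid cells and Ncr1 of NK cells were so on none. Of the B cell markers 3 to 5 of 8 were well above background on an array (summed signal 1.37 to 6.56 times the 75th percentile), and of the CD8 T and NK cell markers 3 of 6 on each array (1.86 to 8.25 times). In rested minus Th1 on the 75th percentile scale, 4 of 5 measured B cell markers were at least 2-fold higher, with Cd79b at least 7.27-fold. So were 2 of 3 CD8 T and NK cell markers and 16.7% of all genes. With spike-ins 2 of the 5 B cell markers were higher and 1 lower, and 0 of the 3 CD8 T and NK cell markers passed 2-fold. Of all genes 4.29% were then higher and 66.2% lower. The summed signal of the 10 myeloid markers ranged from 238 times the 75th percentile in Th1reg to 1164 times in rested, carried by Csf3r and Itgam. In rested minus Th1 on that scale, 2 of 5 measured myeloid markers were at least 2-fold higher. Cd68 was 3.40-fold lower, with 28.3% of all genes at least 2-fold lower. With spike-ins 1 of the 5 was higher and 2 were lower. The part of these markers in the results below was not tested. Fewer cells, less RNA per cell and other differences in the RNA of a sample cannot be told apart in such bulk samples.

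RefSeq promoters of build GRCm38.p6 were found for 62 of the 83 members, as 74 annotated starts. They were searched on the coding strand for a run of C and T letters that begins with C, is at least 5 letters long and starts within 5 bases of the annotated start. Such a run was present at 32 of the 74 starts (43.2%), against 18.3% of all 32851 promoters and 22.7% of 75 promoters of mitochondrial ribosomal protein genes. Runs of at least 7 letters were present at 24 starts (32.4%), against 6.48% of all promoters and 2.67% of the mitochondrial ones. Below are 30 bases, from 18 before the annotated start onward, for members among those whose values stood furthest apart and for Rps7, the member with the narrowest range. Capitals mark the run where one of at least 5 letters was found, and that of Rpl27a, 20 letters long, goes on beyond the window.
Rps27 (chr3:90213637-90213666, minus strand): aggatttccgctttcgCTCCTTTCCggcgg
Rpl37a (chr1:72711242-72711271, plus strand): cacttccgctcgccggtctaaaaccgcgca
Rpl28 (chr7:4792947-4792976, plus strand): gtcccgcctctcgtgtCTCTCTTTCCgtct
Rps2 (chr17:24720045-24720074, plus strand): cgtaggcagtcgagatctcgcgCTTCTTgg
Rpl22l1 (chr3:28805490-28805519, plus strand): tgcgtgcggcgcaagcccgttCTCTTCCCa
Rpl7l1 (chr17:46782645-46782674, minus strand): ccggtgaggctgcgcaagcgcagtagctga
Rps27l (chr9:66946068-66946097, plus strand, first of its starts): tctccactcctccccgccgCCTCTatcccg
Rpl27a (chr7:109519177-109519206, plus strand): cgagacttcgtgagCTCCTCCCTTTTCCCT
Rpl39 (chrX:37085211-37085240, minus strand): ccccctaagctccgCCTCTagcgacttctt
Rps7 (chr12:28635942-28635971, minus strand): agagcttccggtttccacccacctacttcc
Rpl36a (chrX:134585636-134585665, plus strand): gaagtgcacccaggcaccgcctataaactt
Rps15 (chr10:80292413-80292442, plus strand): cctcccggcagagctcgcgataactgcgca
Rpl27 (chr11:101442227-101442256, plus strand): ggaacgctctgttcctgtctgctgctcgtg
Rps27l (chr9:66946395-66946424, plus strand, second of its starts): ctcaccatgggcttcagggtcactaacggg

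A run was thus found both in Rps27, one of the few members above Th1 in rested cells, and in Rps2 and Rpl28, which were among the furthest below. No such run was found in the window of Rpl37a, which stood with Rps27, nor in those of Rpl7l1, Rpl36a, Rps15, Rpl27 and the second start of Rps27l. The window of Rps7, the member with the narrowest range, had none either. A match is a description of the letters and not of a functional site, and annotated starts can lie some bases from the true one.

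The members formed a bright and narrow set. Of the 83, 81 were well above background on all 5 arrays. The exceptions were Rpl3l, a copy of Rpl3 known from striated muscle, which was above background on no array, and Rpl10l, a copy of Rpl10 known from testis, which was so on 4. The median of the 81 stood at 10.002 log2 units above the 75th percentile in Th1, 9.68 after rest, 9.78 in Th1reg, 9.85 in Th1+TGFb and 9.40 in iTreg. Th1 gave the highest value for 63 of the 81 members and iTreg the lowest for 67. Rested gave the lowest for the other 14 and the highest for 13. Shares of all genes by highest or lowest array are not given here. The median of all genes was also below 0 in rested, Th1+TGFb and iTreg minus Th1, at -0.34, -0.22 and -0.27. The range of a member over the 5 arrays had a median of 0.62, and 73 of 81 members (90.1%) stayed within 1 log2 unit, against a median range of 1.32 and 32.2% within 1 unit over the 10716 genes well above background on all arrays.

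This order depended on the scaling. With spike-ins the member medians were 4.54 in Th1, 3.07 after rest, 4.60 in Th1reg, 4.08 in Th1+TGFb and 4.26 in iTreg. All 81 members were then lowest in rested, and 49 were highest in Th1reg and 32 in Th1. The rested array was low for genes at large on this scale. The median of all genes was -1.48 in rested minus Th1 and 1.78 in Th1reg minus rested. The median range was 1.53, against 2.19 for all genes, and only 4 members stayed within 1 unit. What did not move with a common scaling factor was the position of each member relative to the others, and that is given below beside both scales.

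**Figure D1:**
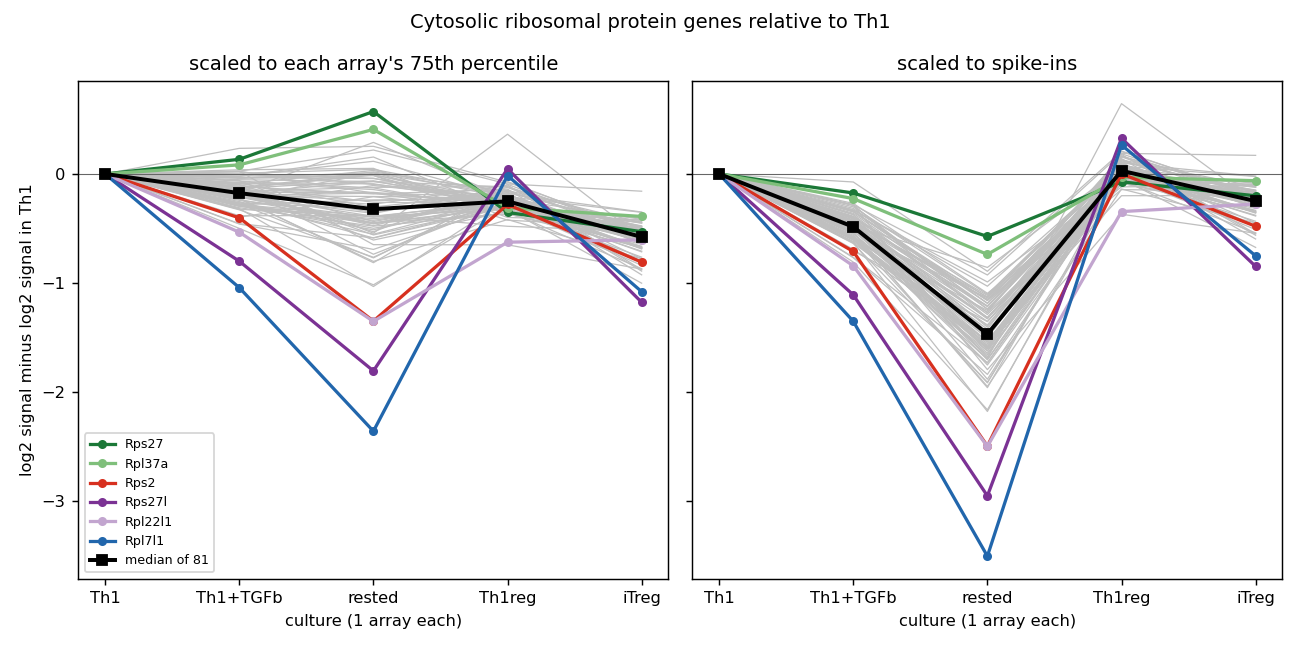
Log2 signal of each of the 81 ribosomal protein genes well above background on all 5 arrays (grey lines), 6 named genes (coloured) and their median (black squares), as the difference from Th1 by culture, scaled to each array's 75th percentile on the left and to spike-ins on the right. In rested cells the median is -0.32 on the left and -1.47 on the right, while Rps27 and Rpl37a lie above and Rpl7l1, Rps27l, Rpl22l1 and Rps2 below the other members on both sides.

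The precision of a member's value was judged from 3 technical sources, none of which holds the variation between cultures. A Rpl23 probe with 10 repeat spots on each array had an SD of 0.061 to 0.075 log2 units among them. Repeat spots of bright probes, 6 to 31 probes per array, had a median SD of at most 0.050 within an array. An SD of 0.071 for a difference between arrays was calculated from this. The scanner software assigned the main probes of the members a median error of 10% of the signal on each array. Of the members, 52 had several probes and 31 had 1 probe. Other probes of a member that were bright, with a mean signal of at least 10000, differed from its main probe by a median of only 0.065 to 0.087 log2 units, depending on the comparison.

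Dim probes of the same genes did not give the same values. For 19 members, 21 other probes lay between 64.0 and 9157 in mean signal and were well above background on all arrays. In rested minus Th1 these dim probes had a median of -0.97, where the main probes of the same genes had -0.36, and 10 of the 21 were at least 2-fold lower while none of the 19 main probes was. In Th1reg minus rested the dim probes had a median of 0.91 against 0.13. For Rps25, a small-subunit protein, the dim probe read -2.40 in rested minus Th1 where the main probe read -0.76, and for Rps24 the pair was 0.065 and 0.012 (both genes were chosen after their values were seen). For 366 pairs of probes of other genes with a bright main probe and a dim other one, the medians in rested minus Th1 were -0.81 for the dim and -1.02 for the bright probes. Which of the probes of a member follows its messenger RNA more closely was not tested, so a small difference below is one of the bright probes.

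The first comparison set rested cells against their starting point, Th1. On the 75th percentile scale the 82 measured members had a median log2 difference of -0.31, a 1.24-fold lower level, beside -0.34 for all 13231 genes. The interquartile range of the members was 0.44 log2 units, against 1.68 for all genes, and 69 of 82 (84.1%) lay within 0.5 of the member median where 34.2% of genes lay within 0.5 of theirs. Rpl10l alone was at least 2-fold higher, 1 of 82 with 16.7% of all genes higher, and 6 members were at least 2-fold lower, with 28.3% of all genes lower. With the dimmest detected probe of each gene, 16 members passed 2-fold either way in place of 7. The small subunit had a median of -0.21 (32 genes) and the large subunit -0.38 (50 genes).

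Scaled to spike-ins, the same comparison gave a median of -1.46 for the members and -1.48 for all genes. Of the members 75 were at least 2-fold lower, where 66.2% of all genes were, and 1 was higher, where 4.29% were. The median of detected probes brought the member median to -0.0085 and their 75th percentile turned it to 0.26. Quantile normalization gave -0.034. The member median minus that of all genes was 0.02 under both main scales, -0.20 with normexp background correction and -0.61 when dim genes were kept without a floor.

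The 6 lower members had the following values. Rpl7l1, a relative of Rpl7 and of a yeast ribosome assembly factor, stood at 1.43 in Th1, -0.92 after rest, 1.42 in Th1reg, 0.39 in Th1+TGFb and 0.35 in iTreg, which makes it 5.13-fold lower in rested than in Th1. Rps27l, a copy of Rps27 known as a target of p53, stood at 7.61, 5.81, 7.66, 6.81 and 6.44 in the same order of cultures and was 3.50-fold lower in rested. Rpl22l1, the copy of Rpl22, stood at 8.35, 6.99, 7.72, 7.81 and 7.74 and was 2.55-fold lower. Rested cells were the lowest array for each of these 3. Th1reg was close to Th1 for Rpl7l1 and Rps27l but below it for Rpl22l1. The 1 probe of Rpl7l1 is itself dim, with a mean signal of 369, and those of Rps27l and Rpl22l1 have 27991 and 45516.

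Rps2, a protein near the entry of messenger RNA into the small subunit, was the only lower member of that subunit with no copy suffix. It stood at 10.25 in Th1, 8.90 after rest, 9.97 in Th1reg, 9.85 in Th1+TGFb and 9.44 in iTreg, a 2.55-fold lower level in rested than in Th1. A further bright Rps2 probe gave -1.62 where the main one gave -1.35. Rpl36a and Rpl28, both of the large subunit, lay at the threshold, at -1.03 and -1.02. The 2 other Rpl36a probes read -0.90 and -1.03, and Rpl28 had 1 probe. Just short of 2-fold were Rpl7a at -0.81 (chosen after its values were seen) and Rpl10 at -0.80.

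At the other end stood Rps27, a zinc-finger protein of the small subunit. Its values were 10.46 in Th1, 11.03 after rest, 10.10 in Th1reg, 10.59 in Th1+TGFb and 9.93 in iTreg. It was 1.49-fold higher in rested than in Th1 on this scale and turned to -0.57 with spike-ins. All 4 of its probes had values between 0.50 and 0.61 in rested minus Th1. Rpl37a, of the large subunit, stood at 11.02, 11.43, 10.71, 11.10 and 10.63, and Rpl29 at 10.78, 11.07, 10.56, 10.61 and 10.23. Both had their highest value in rested, at 0.41 and 0.29 above Th1, and turned to -0.74 and -0.86 with spike-ins.

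Values were also taken relative to the array's median of the 75 members without a name ending in l or l1. No common scaling changes these relative values. Rps27 then went from 0.28 in Th1 to 1.24 in rested and 0.23 in Th1reg. Rpl37a went from 0.84 to 1.64 and back to 0.84. Rps2 ran the other way, from 0.07 in Th1 to -0.88 in rested and 0.10 in Th1reg. Rested gave the highest of the 5 values for Rps27 and Rpl37a and the lowest for Rps2.

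**Figure D2:**
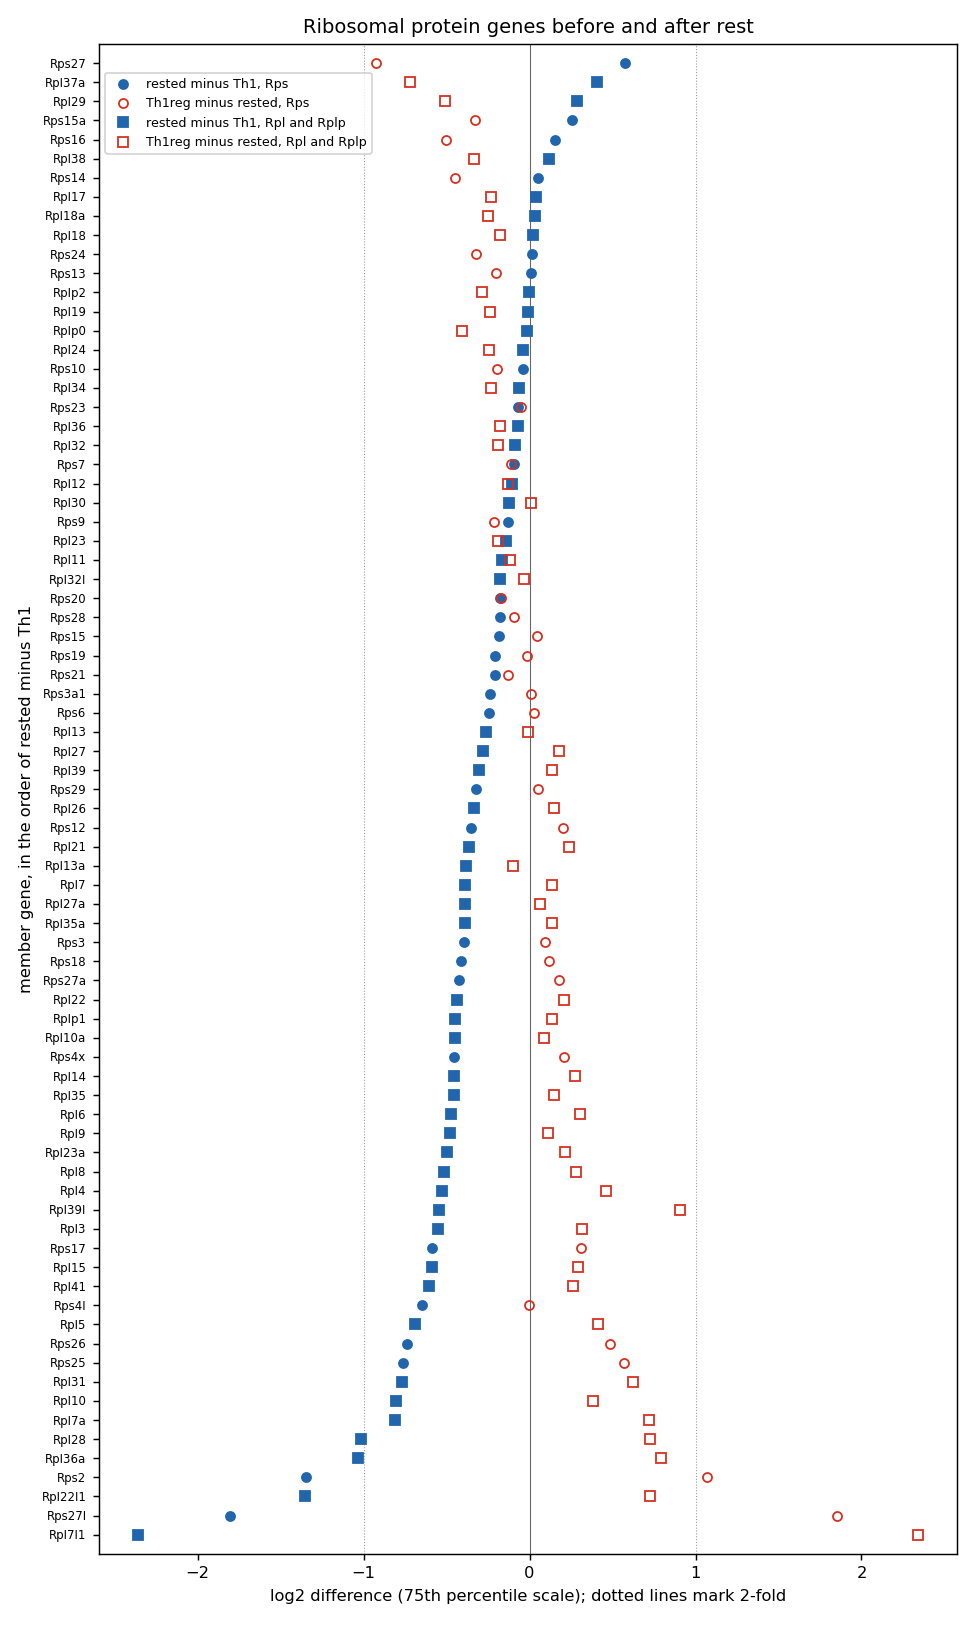
Log2 difference on the 75th percentile scale (x axis) of 78 of the 81 members well above background on all arrays (y axis, ordered by rested minus Th1), for rested minus Th1 (filled blue) and Th1reg minus rested (open red), with circles for Rps and squares for Rpl and Rplp. The comparisons share the rested array, and both run from Rps27 (0.57 and -0.93) to Rpl7l1 (-2.36 and 2.34). With spike-ins the filled points lie below 0 and the open points above it.

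The genes with copies among the members differed from their copies. Rpl7 was at -0.39 in rested minus Th1 where Rpl7l1 was at -2.36. Rpl22, which early T cell development needs, was at -0.44 where Rpl22l1 was at -1.35. Rps27 was at 0.57 where Rps27l was at -1.81, the widest gap apart from that of Rpl10 and Rpl10l. Rpl39 and Rpl39l, the latter known from testis, were closer at -0.30 and -0.54, as were Rps4x at -0.45 and Rps4l at -0.65. Rpl39l and Rps4l have 1 probe each, and both are dim, with mean signals of 92.7 and 178. Rps4l is annotated as a transcribed pseudogene, and Rpl32l (-0.18) ran close to Rpl32 (-0.09). Near-identical copies and the many ribosomal protein pseudogenes of the mouse genome can bind the same probe, so values of single members are uncertain in this respect.

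**Figure D3:**
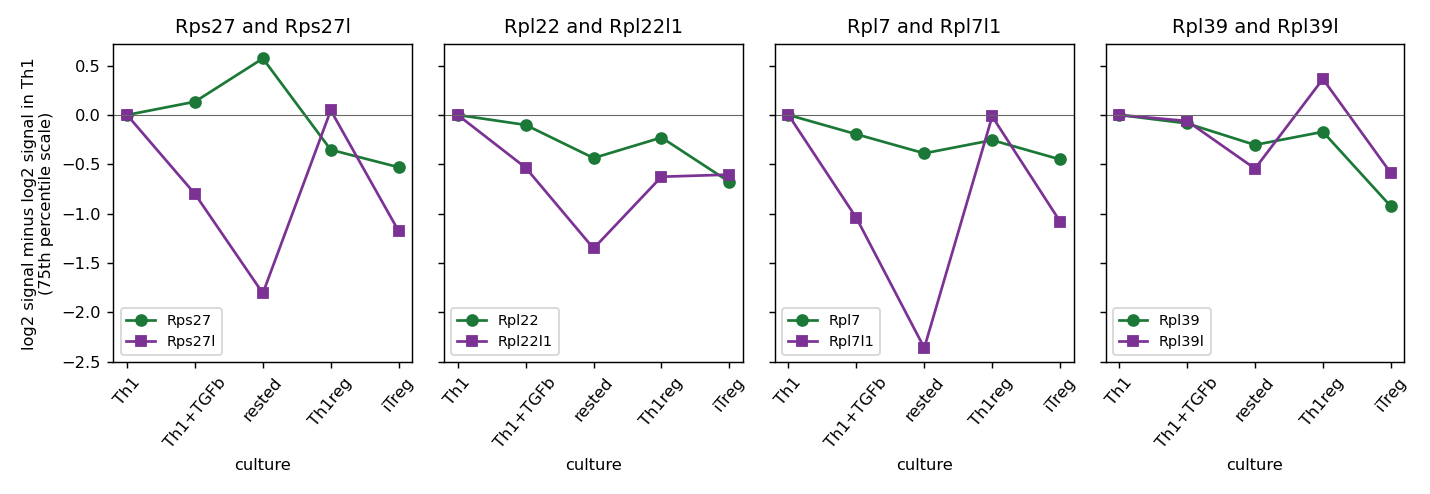
Log2 signal minus log2 signal in Th1 (75th percentile scale, y axis) by culture (x axis) for 4 genes (green circles) and their copies (purple squares). In rested cells Rps27 is at 0.57 and Rps27l at -1.81, Rpl22 at -0.44 and Rpl22l1 at -1.35, Rpl7 at -0.39 and Rpl7l1 at -2.36, and Rpl39 at -0.30 and Rpl39l at -0.54. With spike-ins all 8 genes lie below 0 in rested cells. The probes of Rpl7l1 and Rpl39l are dim, with mean signals of 369 and 92.7.

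Rpl10l behaved apart from all other members, at a level near background. Its main probe stood at -2.81 in Th1, -0.64 after rest, -0.9996 in Th1+TGFb and -1.65 in iTreg and was not well above background in Th1reg, while the lowest detected probe of an array lay between -3.72 and -3.06. It was 4.50-fold higher in rested than in Th1 and at least 8.48-fold lower in Th1reg than in rested. Scaled to spike-ins it was highest in Th1+TGFb and iTreg, at -6.77 and -6.78, and stood at -7.25 in rested. Its other probe was not well above background on any array, so the values rest on 1 dim probe. Its parent Rpl10, a protein that joins the large subunit late in assembly, was at -0.80 in rested minus Th1.

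The second comparison, Th1+TGFb against Th1, followed Th1 cells moved straight into iTreg medium. The member median was -0.17, a 1.13-fold lower level, beside -0.22 for all 13057 genes. Rpl10l was higher (3.50-fold) and Rpl7l1 lower (2.06-fold), which is 1 of 82 each way against 11.1% of genes higher and 8.13% lower. After these came Rps27l at -0.80, Rpl22l1 at -0.53 and Rpl28 at -0.50 on the low side and Rps15a at 0.23 on the high side. The interquartile range of the members was 0.20 log2 units, against 0.90 for all genes. With spike-ins the member median was -0.48 beside -0.53, with 1 member higher (7.21% of genes) and 2 lower (19.3% of genes). The median of detected probes and their 75th percentile gave 0.010 and 0.089.

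The third comparison set naive cells brought up in iTreg medium against those brought up as Th1. The members were lower as a set relative to all genes: their median was -0.57, a 1.49-fold lower level, where that of all 13155 genes was -0.27. The 8 T cell markers had a median of -1.04, 4 of them at least 2-fold lower and a summed signal of 756 times the 75th percentile in iTreg against 1569 in Th1. Cd79b of B cells, Cd8a of CD8 T cells and Hba-a2 of erythroid cells, none well above background in Th1, were at least 10.4-fold, 10.1-fold and 13.3-fold higher in iTreg. These were the highest of their lists. At least 2-fold higher were 2 of 5 measured B cell markers, 2 of 4 CD8 T and NK cell markers and 2 of 2 erythroid ones. Klra8 of NK cells was at least 20.9-fold lower, and of 4 myeloid markers 0 were higher and 2 lower. The part of these other cell types in the members' values was not tested. Of 82 members 81 had a value below 0, but only 3 were at least 2-fold lower, against 18.6% of all genes, and Rpl10l alone was higher, against 10.3%. At a 1.5-fold threshold 39 of 82 were lower, against 34.8% of genes. The interquartile range of the members was 0.16 log2 units, the narrowest of the 6 comparisons, against 1.16 for all genes. With spike-ins the member median was -0.25 while that of all genes was 0.06, with 1 member higher (16.4% of genes) and 0 lower (11.5% of genes). With quantile normalization the member median turned to 0.043, and the member median minus that of all genes to 0.057. Under the other settings run, that gap lay between -0.51 and -0.30.

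The members furthest below Th1 in iTreg were partly others than in rested cells. Rps27l was at -1.18 and Rpl7l1 at -1.08, as in rest, but next came Rpl27a at -1.002 and Rpl39 at -0.93. Rpl27a stood at 10.20 in Th1, 9.81 after rest, 9.87 in Th1reg, 9.91 in Th1+TGFb and 9.19 in iTreg. On this 75th percentile scale iTreg was below every other array, as for 67 of the 81 members. A further bright Rpl27a probe gave -0.99, and a dim one -0.58. Rpl39, of the large subunit and encoded on the X chromosome, stood at 9.43, 9.12, 9.26, 9.34 and 8.50, again with iTreg lowest. With spike-ins rested was the lowest array for both genes. Rpl27a was then at 3.20 in rested and 4.06 in iTreg, and Rpl39 at 2.51 and 3.37. Rps15 at -0.89 and Rpl27 at -0.88 had the same pattern (Rps15 was chosen after its values were seen). Among the least lowered were Rpl14 at -0.35 and Rps7 at -0.35. Rps2, 2.55-fold lower in rested, was at -0.81 here.

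The fourth comparison followed rested cells into iTreg medium. The member median was 0.047, a 1.03-fold difference, where all 13334 genes had a median of 0.36. At least 2-fold higher were 3 members, with 29.6% of all genes higher, and 1 was lower, with 18.9% of all genes lower. Rpl7l1 was 5.07-fold, Rps27l 3.61-fold and Rps2 2.10-fold higher in Th1reg, and the lower member was Rpl10l. With the dimmest detected probe of each gene 12 members passed 2-fold in place of 4. Below 0 stood Rps27 at -0.93, Rpl37a at -0.72, Rpl29 at -0.51 and Rps16 at -0.51. With spike-ins those 4 turned above 0, the member median was 1.47 beside 1.78 for all genes, and 76 members were higher (72.2% of genes) and 1 lower (5.28% of genes). Both detected-probe scalings turned the median the other way, to -0.29 and -0.54. The member median minus that of all genes was -0.31 under both main scales, 0.0017 with normexp background correction and 0.42 when dim genes were kept without a floor.

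The fifth comparison, Th1reg against Th1+TGFb, set cells with and without rest before the same medium side by side. The member median was -0.062 beside 0.24 for all 13215 genes, with Rpl7l1 higher (2.04-fold) and Rpl10l lower (at least 6.60-fold), 1 each way against 13.5% and 14.5% of genes. Rps27l was at 0.85 and Rpl39l (a dim probe) at 0.43, while Rps4l (also dim) was at -0.67, Rps27 at -0.49 and Rps14 at -0.44. With spike-ins the member median was 0.53 beside 0.82, with 3 members higher (40.3% of genes) and 1 lower (8.31% of genes). Quantile normalization, normexp and the dimmest detected probes also turned it above 0, to 0.11, 0.091 and 0.026. Of the 3 cultures that ended in iTreg medium, Th1reg and Th1+TGFb lay closest to each other in member median on the 75th percentile scale, while with spike-ins Th1+TGFb lay closest to iTreg.

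The sixth comparison, Th1reg against iTreg, gave a member median of 0.34 beside 0.33 for all 13187 genes, with 80 of 82 members above 0. Rps27l (2.33-fold) and Rpl7l1 (2.09-fold) were higher, 2 members against 17.5% of genes, and Rpl10l was at least 4.22-fold lower, 1 member against 11.5%. Rpl39l (a dim probe) at 0.95 and Rpl27 at 0.78 followed, and at the low end were Rpl22l1 at -0.022, Rps14 at 0.037 and Rpl13a at 0.046. With spike-ins the member median was 0.29 beside 0.28, again with 2 members higher (15.9% of genes) and 1 lower (12.1% of genes). Among the settings run, the 75th percentile of detected probes turned it, to -0.079, and quantile normalization brought it to 0.0053.

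**Figure D4:**
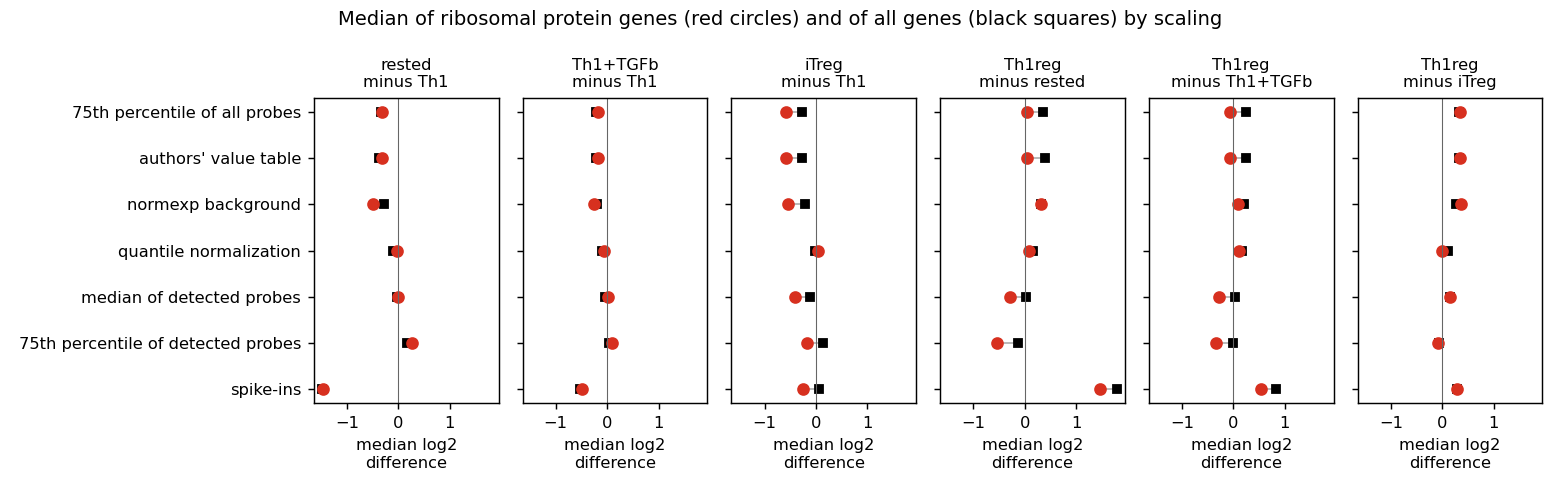
Median log2 difference (x axis) of the ribosomal protein genes (red circles) and of all genes (black squares) in the 6 comparisons (panels) under 7 ways of scaling or background correction (rows). The member median moves with the scaling, from -1.46 to 0.26 in rested minus Th1 and from -0.54 to 1.47 in Th1reg minus rested, while the member median minus that of all genes goes no further from 0 than -0.40.

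Members of the P stalk, which recruits elongation factors, had uneven values in rested minus Th1 on the 75th percentile scale. Rplp0 stood at -0.02, Rplp2 at -0.0044 and Rplp1 at -0.45, below the member median of -0.31, and with spike-ins Rplp0 was at -1.16. Rpl5 and Rpl11, which together with 5S ribosomal RNA can bind the p53 regulator Mdm2, were at -0.69 and -0.17. Rps6, the substrate of S6 kinase, stood at 10.002 in Th1, 9.76 after rest, 9.78 in Th1reg, 9.82 in Th1+TGFb and 9.44 in iTreg, a range of 0.57 beside the members' median range of 0.62. Rps27a, made as a fusion with ubiquitin, was at -0.43 in rested minus Th1 (these genes were chosen for their roles after the values were known). Among the members with the narrowest range over the 5 arrays were Rps7 (0.37), Rps3a1 (0.42), Rps24 (0.42) and Rps12 (0.45), all of the small subunit.

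The 5 ribosomal proteins that the name pattern passes over had values in the range of the members. In rested minus Th1 their median was -0.26 (-1.41 with spike-ins), from -0.97 for Rpl36al, the copy of Rpl36a, to 0.30 for Fau, a fusion of a ubiquitin-like protein with a small-subunit protein. Rack1 was at -0.26 and Rpsa at -0.45. In iTreg minus Th1 all 5 were below 0, with a median of -0.60, and Rpl36al was 2.02-fold lower.

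Other genes of the translation machinery spread further from Th1 in rested cells than the members did. Mitochondrial ribosomal proteins, which serve the separate ribosomes of mitochondria, had a median of -1.18 with 54 of 77 at least 2-fold lower. Of the cytosolic ones 6 of 82 were lower, and of all genes 28.3% were lower and 16.7% higher. Ribosome biogenesis factors had a median of -1.39 with 30 of 45 lower and 1 higher, from Rrp1b, 6.28-fold lower, to Wdr12, 2.05-fold higher. Translation initiation factors had a median of -1.11 with 19 of 34 lower, led by the cap-binding protein Eif4e (4.42-fold). Of 8 elongation factors and associated genes 3 were lower, with Eif5a 7.58-fold lower, while Tpt1 was at 0.03. With spike-ins, which shift all genes of an array by 1 common factor and so leave these gaps nearly as they were, the medians of the first 3 were -2.32, -2.54 and -2.25 beside -1.46.

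The same lists stood above the members in Th1reg minus rested, a comparison that shares the rested array. Of the mitochondrial ribosomal proteins 57 of 77 were at least 2-fold higher (median 1.39), of the biogenesis factors 36 of 45 (median 1.64) and of the initiation factors 22 of 34 (median 1.24). Of the members 3 of 82 were higher, and of all genes 29.6%. In Th1reg minus Th1+TGFb 33 of 45 biogenesis factors were higher (median 1.16), beside 13.5% of all genes, where the member median was -0.062. In iTreg minus Th1 the order differed: the members, at -0.57, lay below the biogenesis factors at -0.22 (0.10 with spike-ins). The members lay beside the initiation factors at -0.54 and the mitochondrial ribosomal proteins at -0.66. Of the biogenesis factors 0 of 45 passed 2-fold on the 75th percentile scale, with 18.6% of all genes lower and 10.3% higher. The gaps between these lists were not tested. Of the 83 members 76 to 77 had a main probe above 10000 on an array. The part of brightness in these gaps was not tested.

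**Figure D5:**
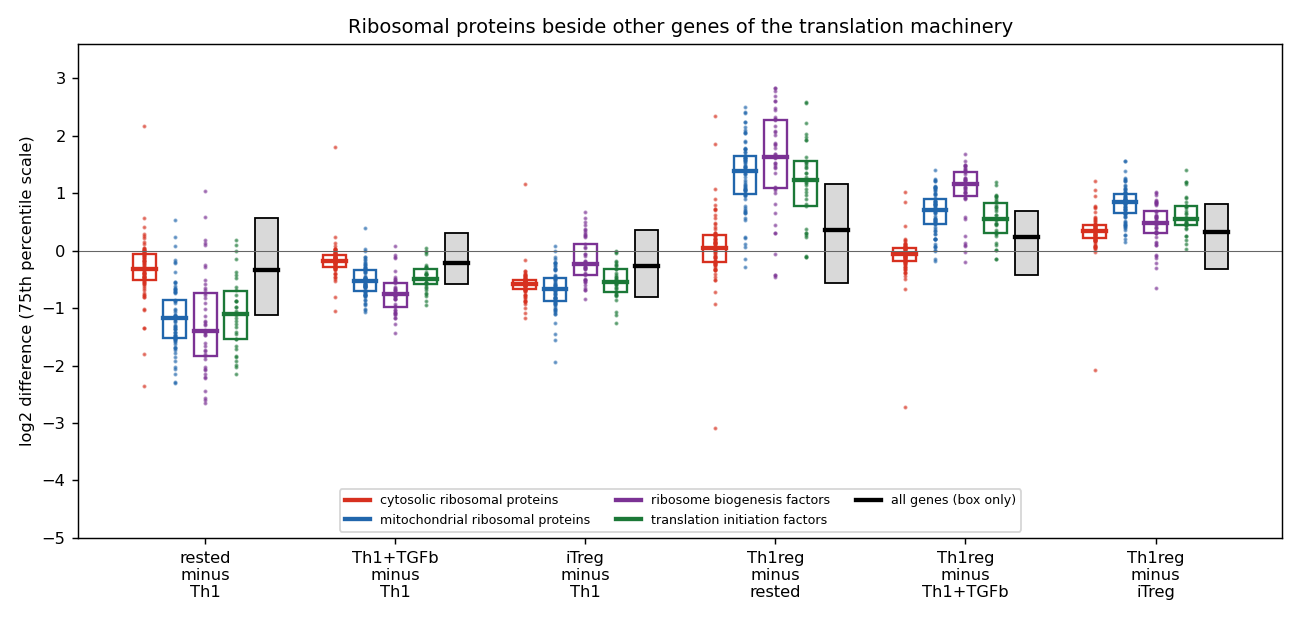
Log2 difference on the 75th percentile scale (y axis) in the 6 comparisons (x axis) for cytosolic ribosomal proteins (red), mitochondrial ribosomal proteins (blue), ribosome biogenesis factors (purple) and translation initiation factors (green), with 1 point per gene, boxes for the interquartile range and thick lines for the median, and a grey box for all genes. In rested minus Th1 the medians are -0.31, -1.18, -1.39 and -1.11, and in Th1reg minus rested 0.05, 1.39, 1.64 and 1.24. With spike-ins the red medians of these comparisons are -1.46 and 1.47, and the lowest red points against Th1reg are bounds for Rpl10l.

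Genes of the signalling and transcription that act on ribosomal protein genes were mixed. Of 20 measured genes of the mTOR and S6 kinase list 7 were at least 2-fold lower in rested than in Th1 and 1 higher, beside 28.3% of all genes lower and 16.7% higher. Larp1, which binds oligopyrimidine tracts of messenger RNA, was at -1.48 in rested minus Th1, 1.60 in Th1reg minus rested and -0.03 in iTreg minus Th1 (chosen after its values were seen). Sesn1, a Sestrin that restrains mTOR, was the highest of the list in rested, 4.56-fold above Th1, and Eif4ebp1, a repressor of cap-dependent translation, the lowest, 5.45-fold below. Of 9 genes of the Myc family 5 were lower in rested and 0 higher, beside the same shares of all genes. Myc itself, which drives ribosome production, stood at 4.51 in Th1, 1.93 after rest, 4.36 in Th1reg, 3.46 in Th1+TGFb and 4.42 in iTreg (chosen after its values were seen). Rested cells were the lowest array for Myc on this scale. They were the lowest for 14 of the 81 ribosomal protein genes and iTreg for 67, while with spike-ins rested was the lowest for all 81. The median of all genes in rested minus Th1 was -1.48 with spike-ins.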

How the data were processed

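Scanner files were deposited for the 5 arrays, and their headers name Agilent Feature Extraction 10.7.1.1. The deposited processed signal is a linear intensity, background-subtracted by that software and not scaled between arrays. Control spots and 109 to 142 outlier spots per array were left out, spots of a probe were averaged, and log2 signals were taken minus the array's 75th percentile over probes or minus the median of 7 spike-in probes. Accessions matched 28331 of 55681 probes to genes, and the brightest probe stood for a gene. A probe not well above background on 1 array was set to the higher of its signal and that array's lowest detected signal, which makes its fold a bound. Genes dim on both arrays of a comparison got no value. Values of a few single genes are not reported here. Members and gene lists were chosen with earlier results of these data known. Members named are the 4 furthest each way per comparison, the 6 widest and 6 narrowest ranges, copies with their parents, and those marked as chosen later. In other lists they are the furthest each way in a comparison.

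Work was done in Python 3.11.15 (pandas 2.3.3, numpy 2.4.6) and, for normexp (offset 50) and quantile normalization, R 4.3.3 with limma 3.58.1. Normexp used the median spot signal. The counting of 2-fold genes was tested on simulated data with changes well beyond 2-fold and every gene set well above background. This did not cover values near 2-fold or near background. The authors' deposited value table was the same intensity divided by 1 constant per array. Alternatives were other scalings, background correction, probes, thresholds and members.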

Additional observations from a re-analysis of the deposited data

Results flagged for a closer look

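A set of 5 results had opposite signs in iTreg medium entered from the rested state and entered directly from Th1. In each case 1 array was set against 1 array, so the difference between the effects was not tested. The member median scaled to spike-ins was 1.47 in Th1reg minus rested and -0.48 in Th1+TGFb minus Th1, where the median of all genes was 1.78 and -0.53, while on the 75th percentile scale it was 0.047 and -0.17. On the 75th percentile scale Rpl7l1 was at 2.34 after rest and -1.04 without it, Rps27l at 1.85 and -0.80, and Rps2 at 1.07 and -0.40. Rpl10l ran the other way, with a bound of -3.08 after rest and 1.81 without it.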

How the results depend on the processing

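With 1 array per group, there was no replicate to leave out. No paired analysis was possible because each group holds 1 array. Direction and counts of the member set rested mainly on scaling, bright probes limit how far small differences are read, and the cause of each shift was not tested unless stated. No log2 difference of a member that was at least 2-fold in the reported setting changed sign under an alternative. This did not hold for the other lists. In rested minus Th1 the median of the CD8 T and NK cell markers went from 1.13 to -0.014 with spike-ins. Wdr12, the 1 biogenesis factor that was 2-fold higher there, was no longer so with spike-ins. Comparisons are given in the order rested minus Th1, Th1+TGFb minus Th1, iTreg minus Th1, Th1reg minus rested, Th1reg minus Th1+TGFb and Th1reg minus iTreg, and a comparison is named where some are left out.

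Spike-in scaling gave member medians of -1.46, -0.48, -0.25, 1.47 and 0.53 in the first 5 comparisons and counts of members at least 2-fold apart of 76 (rested minus Th1), 1 (iTreg minus Th1), 77 (Th1reg minus rested) and 4 (Th1reg minus Th1+TGFb). Only the 3 bright spike-ins, an alternative chosen after seeing the data, gave -1.43, -0.51, -0.26, 1.46 and 0.57 and the same counts of 76, 1, 77 and 4. The 75th percentile of detected probes gave medians of 0.26, 0.089, -0.16, -0.54, -0.33 and -0.079, counts of 4, 1, 1, 8, 1 and 1, and a member median minus that of all genes of -0.40 in Th1reg minus rested. The median of detected probes gave -0.0085, 0.010, -0.42, -0.29, -0.28 and 0.15, with counts of 1 in Th1+TGFb minus Th1, 2 in iTreg minus Th1 and 1 in Th1reg minus Th1+TGFb.

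Quantile normalization gave medians of -0.034, -0.056 and 0.043 in the first 3 comparisons, 0.11 in Th1reg minus Th1+TGFb and 0.0053 in Th1reg minus iTreg, with counts of 4, 1 and 0 in the first 3 and 1 in Th1reg minus Th1+TGFb. The member median minus that of all genes was then 0.057 in iTreg minus Th1, and -0.082, -0.052 and -0.11 in the 3 comparisons of Th1reg. Normexp gave medians of -0.48 and -0.26 against Th1 for rested and Th1+TGFb, 0.33 in Th1reg minus rested and 0.091 in Th1reg minus Th1+TGFb. Its counts were 0 in Th1+TGFb minus Th1 and 1 in each of iTreg minus Th1, Th1reg minus Th1+TGFb and Th1reg minus iTreg. The member median minus that of all genes was -0.20, -0.074, 0.0017, -0.11 and 0.079 with normexp, iTreg minus Th1 left out.

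The median over the probes of a gene gave counts of 11 in rested minus Th1, 2 in iTreg minus Th1, 9 in Th1reg minus rested and 1 in Th1reg minus Th1+TGFb. In rested minus Th1 and Th1reg minus rested it gave medians of -0.39 and 0.12, and -0.094 and -0.19 relative to all genes. The dimmest detected probe of a gene, also chosen after seeing the data, gave counts of 16, 4, 7, 12, 7 and 7. It gave medians of -0.44 in rested minus Th1, 0.20 in Th1reg minus rested and 0.026 in Th1reg minus Th1+TGFb, and -0.12, -0.14 and -0.21 relative to all genes. With no filter and no floor the member median minus that of all genes was -0.61, -0.33, -0.51, 0.42, 0.19 and 0.40, since dim genes then entered the median of all genes.

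Without symbols ending in l or l1 the counts were 3, 0, 1, 1, 0 and 0, since the members furthest apart carry such names. At 1.5-fold they were 17 in rested minus Th1, 40 in iTreg minus Th1 and 12, 4 and 9 in the comparisons of Th1reg. The authors' value table moved none of the medians or counts beyond the technical spread.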
